A study of Mus musculus with 6 samples.

Results

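The 10 immediate early genes *Fos*, *Fosb*, *Jun*, *Junb*, *Egr1*, *Atf3*, *Ier2*, *Ier3*, *Dusp1* and *Klf6* were followed in the colon epithelium of 6 mice, out of 52550 genes listed. They were taken by name and matched through their Ensembl identifiers, and all 10 were found and passed the filter on low values, which asked for 1 FPKM or more (fragments counted per length of transcript and per depth of the library) in 3 or more samples. The Zfp90fl/fl group held 3 control mice whose *Zfp90* gene carried loxP sites around exon 4, and the Zfp90ΔIEC group held 3 mice in which Villin-cre, a recombinase driven by a promoter of intestinal epithelial cells, deleted that part. All were male C57BL/6 mice of 6 to 8 weeks by the labels. As the colon was taken on day 80, this cannot be their age at sampling. All received 10 mg/kg azoxymethane (AOM), a carcinogen. Then came 3 cycles, each of 7 days of dextran sulfate sodium (DSS), which injures the colon, and 14 days of water. The DSS was at 2% by the labels. The paper's methods state a higher DSS concentration, and which was used cannot be told from the data. There was no untreated group. *Zfp90* was measured at 0.630, 0.490 and 0.569 FPKM in the Zfp90fl/fl mice and 0.0846, 0.195 and 0.166 FPKM in the Zfp90ΔIEC mice, replicates 1 to 3 in order, so that the groups did not overlap in the deleted gene, which lay below the filter (log2 fold change -0.44, standard error 0.0565, limma adjusted p = 0.123 over 27805 genes without the filter). For Zfp90ΔIEC replicates 2 and 3 the genotype label names another gene number, and their titles placed them in the group. The epithelium was released from pieces of colon in EDTA and DTT at 37 °C before RNA was isolated, so that the RNA is that of cells after this step. No sample without it was analysed here, and its part in any level below cannot be told apart from that of the tissue.

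Immediate early genes are switched on within minutes by growth factors, cytokines, wounding or stress, from factors already present in the cell and without new protein synthesis. Kinases of the ERK, JNK and p38 pathways phosphorylate serum response factor partners, CREB and JUN, which sit on short promoters of compact genes, and the RNA that results is made and lost rapidly. The proteins are of several kinds. FOS, FOSB, JUN and JUNB pair through leucine zippers into the dimeric transcription factor AP-1, ATF3 is a related leucine zipper factor induced by stress, EGR1 and KLF6 are zinc finger factors, IER2 and IER3 are small proteins of the immediate early class, and DUSP1 is a phosphatase that switches off MAP kinases again. In the gut these genes respond to mitogens and injury, and also to the handling and dissociation of tissue.

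The start regions of the members show what such a compact promoter looks like. RefSeq (GRCm38.p6) gave 300 bases around the start, 250 before and 50 after, for 8 of the 10, and *Egr1* and *Ier2* had none. The letters TGACG, the core of the site bound by CREB and ATF factors, were found on either strand in 5 of the 8 (62.5%), against 20.8% of 32851 promoters of this length, and these 5 are printed because they hold it, with each match in capitals on the strand as read. They are *Fos* (chr12:85473640-85473939, plus strand), *Fosb* (chr7:19309996-19310295, minus strand), *Junb* (chr8:84978699-84978998, minus strand), *Atf3* (chr1:191183284-191183583, minus strand) and *Dusp1* (chr17:26508423-26508722, minus strand), each 5′ to 3′ along its gene. For *Atf3* and *Dusp1* the RefSeq start lies inside the longer GENCODE span given for the gene later on.
Fos: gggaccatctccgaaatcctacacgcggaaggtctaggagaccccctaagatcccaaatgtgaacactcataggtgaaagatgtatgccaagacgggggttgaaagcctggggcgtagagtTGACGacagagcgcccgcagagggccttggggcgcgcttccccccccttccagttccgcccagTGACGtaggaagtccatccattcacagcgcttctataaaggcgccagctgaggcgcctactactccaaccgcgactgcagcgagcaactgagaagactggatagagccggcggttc
Fosb: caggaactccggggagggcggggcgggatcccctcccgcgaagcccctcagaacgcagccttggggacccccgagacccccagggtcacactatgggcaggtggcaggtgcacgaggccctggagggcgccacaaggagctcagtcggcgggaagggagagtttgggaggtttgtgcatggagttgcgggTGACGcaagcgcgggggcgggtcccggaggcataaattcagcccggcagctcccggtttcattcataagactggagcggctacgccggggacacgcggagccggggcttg
Junb: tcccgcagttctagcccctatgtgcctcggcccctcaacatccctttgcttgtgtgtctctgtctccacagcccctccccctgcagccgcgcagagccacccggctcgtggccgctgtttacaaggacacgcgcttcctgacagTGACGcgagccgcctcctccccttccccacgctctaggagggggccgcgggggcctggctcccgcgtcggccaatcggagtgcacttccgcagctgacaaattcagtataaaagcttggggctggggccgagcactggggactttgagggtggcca
Atf3: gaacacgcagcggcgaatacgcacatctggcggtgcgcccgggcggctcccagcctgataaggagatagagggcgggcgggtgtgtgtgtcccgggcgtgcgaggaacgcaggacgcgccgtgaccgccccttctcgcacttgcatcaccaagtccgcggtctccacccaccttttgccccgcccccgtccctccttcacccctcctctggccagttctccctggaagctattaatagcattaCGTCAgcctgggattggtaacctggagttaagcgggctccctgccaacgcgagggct
Dusp1: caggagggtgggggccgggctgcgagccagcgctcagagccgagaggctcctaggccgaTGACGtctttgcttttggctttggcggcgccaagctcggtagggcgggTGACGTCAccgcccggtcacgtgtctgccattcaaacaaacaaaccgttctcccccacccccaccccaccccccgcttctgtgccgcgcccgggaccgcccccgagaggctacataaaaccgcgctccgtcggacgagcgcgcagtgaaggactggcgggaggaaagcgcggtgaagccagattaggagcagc

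*Dusp1* alone held the full palindrome TGACGTCA, which contains TGACG on each strand and which 1.79% of all promoters held. In *Atf3* the match was to the reverse complement, CGTCA. The letters GGGCGG, the GC box, were found in 7 of the 8 (all but *Junb*), against 35.7% of all promoters, and TATAAA in *Fos* and *Junb*, 25% against 13.6%. Neither TGANTCA, the AP-1 site, nor the CArG box of serum response factor was found in any of the 8, which says only that these letters are not in this window. The genes themselves were short. Their RefSeq spans ran from 1199 to 13038 bases with a median of 3286, against a median of 23057 bases over 10150 tested protein-coding genes, and none had more than 4 exons in its longest coding transcript (GENCODE M21), as held for 19.0% of those genes. *Jun*, *Junb* and *Ier2* had 1 exon, as did 1.74% of the tested genes. These are descriptions of the reference, with no test.

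The AP-1 genes *Fos*, *Jun*, *Fosb* and *Junb* were among the most abundant RNAs of this epithelium, and at nearly the same level in all 6 mice. Positions are those of GENCODE M21 on GRCm38. *Fos* (ENSMUSG00000021250, chr12:85473890-85477273, plus strand), the founding FOS subunit, was measured at 757, 793 and 761 FPKM in the Zfp90fl/fl mice and 807, 743 and 813 FPKM in the Zfp90ΔIEC mice, for replicates 1, 2 and 3 in this order as throughout. It ranked 38 of 52550 genes by mean FPKM, and its highest sample was 1.09 times its lowest. *Jun* (ENSMUSG00000052684, chr4:95049034-95052222, minus strand), the subunit that pairs with FOS, was measured at 423, 434 and 430.2 FPKM in the Zfp90fl/fl mice and 447, 441 and 443 FPKM in the Zfp90ΔIEC mice. The 3 Zfp90ΔIEC values lay above the 3 Zfp90fl/fl values, but by little, with means of 429 ± 5.45 FPKM in the Zfp90fl/fl mice and 444 ± 2.86 FPKM in the Zfp90ΔIEC mice (SD, n = 3 each). *Fosb* (ENSMUSG00000003545, chr7:19302696-19310051, minus strand), a second FOS subunit, was measured at 146, 137 and 135 FPKM in the Zfp90fl/fl mice and 138, 135 and 147 FPKM in the Zfp90ΔIEC mice. *Junb* (ENSMUSG00000052837, chr8:84974484-84978718, minus strand), a JUN subunit that often restrains growth where JUN promotes it, was measured at 153, 168 and 163 FPKM in the Zfp90fl/fl mice and 151, 155 and 163 FPKM in the Zfp90ΔIEC mice. For *Fosb* and *Junb* the genotypes overlapped. *Atf3* (ENSMUSG00000026628, chr1:191170296-191218039, minus strand), the stress-induced partner, was measured at 451, 502 and 496 FPKM in the Zfp90fl/fl mice and 472, 427 and 536 FPKM in the Zfp90ΔIEC mice, and both its lowest and its highest value came from Zfp90ΔIEC mice.

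By mean FPKM the zinc finger factors lay below *Jun* and above *Junb* and *Fosb*. *Egr1* (ENSMUSG00000038418), which couples growth factor signals to transcription, was measured at 185, 232 and 225 FPKM in the Zfp90fl/fl mice and 197, 213 and 227 FPKM in the Zfp90ΔIEC mice. Replicate 1 was the lowest of each genotype and the groups overlapped. *Klf6* (ENSMUSG00000000078, chr13:5861482-5870394, plus strand), a growth-restraining factor, was measured at 225, 264 and 243 FPKM in the Zfp90fl/fl mice and 227, 215 and 219.6 FPKM in the Zfp90ΔIEC mice. Zfp90fl/fl replicates 2 and 3 were the highest, while replicate 1 fell within the Zfp90ΔIEC range.

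Of the remaining members, *Ier2* (ENSMUSG00000053560, chr8:84661331-84662852, minus strand) was measured at 258, 280.5 and 287 FPKM in the Zfp90fl/fl mice and 254, 271 and 278 FPKM in the Zfp90ΔIEC mice. *Dusp1* (ENSMUSG00000024190, chr17:26505590-26562128, minus strand), the phosphatase of the negative feedback, was measured at 95.6, 92.8 and 109 FPKM in the Zfp90fl/fl mice and 94.3, 89.7 and 101 FPKM in the Zfp90ΔIEC mice. Both overlapped between the genotypes. *Ier3* (ENSMUSG00000003541, chr17:35821684-35822923, plus strand), a target of NF-κB linked to cell survival, was the exception in level and in spread, at 14.4, 16.3 and 19.7 FPKM in the Zfp90fl/fl mice and 17.9, 22.8 and 19.2 FPKM in the Zfp90ΔIEC mice. Its lowest values were those of Zfp90fl/fl replicates 1 and 2 and its highest that of Zfp90ΔIEC replicate 2.

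**Figure D1:**
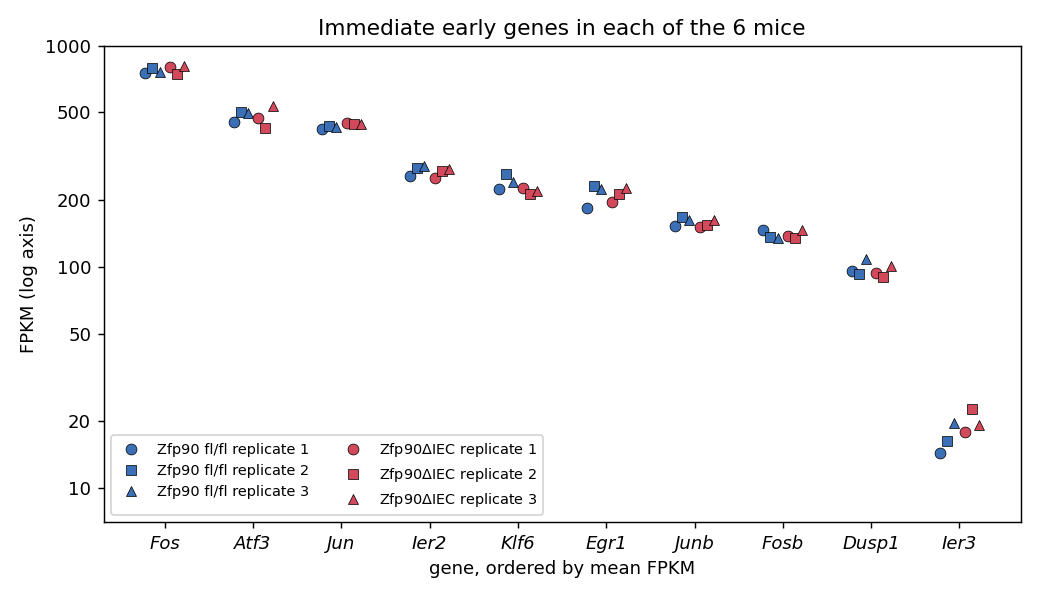
FPKM of each immediate early gene in each of the 6 mice, on a log axis, with genes ordered by their mean. Blue symbols are the 3 Zfp90fl/fl mice and red symbols the 3 Zfp90ΔIEC mice, with circles, squares and triangles for replicates 1, 2 and 3. The symbols of each gene lie close together, from about 779 FPKM on average for *Fos* to 18.4 for *Ier3*, which has the widest spread.

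Ordered by mean FPKM over the 6 mice, a value per length, the members ran *Fos* (779), *Atf3* (481), *Jun* (436), *Ier2* (271), *Klf6* (232), *Egr1* (213), *Junb* (159), *Fosb* (139.8), *Dusp1* (97.1) and *Ier3* (18.4). The ranges over the 6 mice overlapped between *Atf3* and *Jun*, between *Ier2* and *Klf6* and between *Klf6* and *Egr1*. The other neighbours did not overlap. Compared within each mouse, *Ier2* was higher than *Klf6* in 6 of 6 mice. *Atf3* was higher than *Jun* in 5 of 6, and *Klf6* higher than *Egr1* in 5 of 6. Of the 10 genes, 3 were among the 100 highest of all genes and 9 among the 500 highest, while *Ier3* ranked 2395. Together they made up 0.609% to 0.679% of the summed FPKM of a sample. The ratio of *Fos* to *Jun* lay between 1.68 and 1.83 in the 6 mice, with means of 1.80 ± 0.0305 in the Zfp90fl/fl and 1.77 ± 0.0801 in the Zfp90ΔIEC mice (SD, n = 3 each), and that of *Fos* to *Fosb* lay between 5.17 and 5.84. The ratio of *Jun* to *Junb* lay between 2.58 and 2.95. All 3 ratios overlapped between the genotypes.

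The genotypes were compared to ask whether loss of *Zfp90* from the epithelium went with another level of these genes after AOM-DSS treatment. None of the 10 passed an adjusted p under 0.05 in limma (0 of 10), where 0.199% of the 11564 genes tested did, 23 in all (0.0692% higher and 0.13% lower in the Zfp90ΔIEC mice). None had an unadjusted p under 0.05, where 14.6% of the genes tested did (6.56% higher and 8.09% lower). The median log2 fold change of the members was -0.013, beside -0.023 over all genes tested, and the median size regardless of sign was 0.042 beside 0.088. Fold changes throughout are Zfp90ΔIEC minus Zfp90fl/fl on the scale of log2(FPKM + 1). The added 1 shrinks the change of genes near or below 1 FPKM. An example is *Zfp90*, with means of 0.563 FPKM in the Zfp90fl/fl and 0.149 FPKM in the Zfp90ΔIEC mice. In 4 members the change was above 0 and in 6 below 0.

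For most members the interval of the difference was narrow. *Fos* was at 0.031 (95% interval -0.11 to 0.17, limma adjusted p = 0.843), *Fosb* at 0.0055 (95% interval -0.14 to 0.15, limma adjusted p = 0.975) and *Junb* at -0.044 (95% interval -0.19 to 0.097, limma adjusted p = 0.776). As folds, these intervals ran from 0.927 to 1.13 for *Fos*, from 0.908 to 1.11 for *Fosb* and from 0.879 to 1.07 for *Junb*. *Atf3* was at -0.019 (95% interval -0.24 to 0.20, limma adjusted p = 0.937) and *Egr1* at -0.0064 (95% interval -0.24 to 0.23, limma adjusted p = 0.981), with wider intervals. *Ier2* was at -0.040 (95% interval -0.20 to 0.12, limma adjusted p = 0.818) and *Dusp1* at -0.059 (95% interval -0.25 to 0.13, limma adjusted p = 0.777). In 9 of the 10, all but *Ier3*, the interval lay within 1.3-fold in either direction.

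The lowest p belonged to *Klf6*, with 244 ± 19.5 FPKM in the Zfp90fl/fl mice and 220.4 ± 6.08 FPKM in the Zfp90ΔIEC mice (SD, n = 3 each), a change of -0.14 (95% interval -0.31 to 0.026, limma adjusted p = 0.414) and an unadjusted p of 0.0855. The largest change was that of *Ier3*, with 16.8 ± 2.70 FPKM in the Zfp90fl/fl mice and 20.0 ± 2.56 FPKM in the Zfp90ΔIEC mice (SD, n = 3 each), at 0.24 (95% interval -0.068 to 0.55, limma adjusted p = 0.449). As a fold its interval ran from 0.954 to 1.46, so that a rise of up to 1.46-fold in the Zfp90ΔIEC mice lay within it. *Jun* was the only member whose samples did not overlap between the genotypes, 1 of 10, where 21.3% of the genes tested did not overlap (8.73% higher and 12.6% lower in the Zfp90ΔIEC mice), and its change was 0.048 (95% interval -0.064 to 0.16, limma adjusted p = 0.689). Under quantile normalization *Jun* overlapped, and *Klf6* did not.

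**Figure D2:**
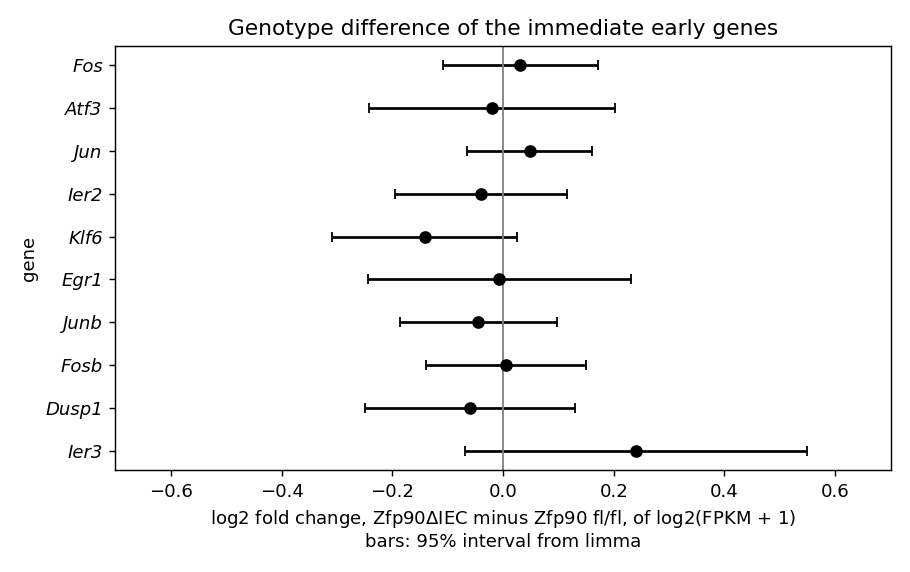
Log2 fold change of each immediate early gene, Zfp90ΔIEC minus Zfp90fl/fl, on the scale of log2(FPKM + 1), with the 95% interval from limma as bars and 3 mice in each genotype. All 10 intervals include 0, and that of *Ier3*, from -0.068 to 0.55, is the widest.

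Single mice differed in these genes by small amounts. The highest sample exceeded the lowest by a factor of 1.06 for *Jun*, 1.09 for *Fos* and for *Fosb*, 1.11 for *Junb* and 1.13 for *Ier2*. The factor was 1.216 for *Dusp1*, 1.23 for *Klf6*, 1.25 for *Egr1*, 1.26 for *Atf3* and 1.58 for *Ier3*. The SD of log2(FPKM + 1) between mice of the same genotype had a median of 0.080 over the members and of 0.10 over all genes tested. Since spread depends on level, each member was also set beside the 500 tested genes nearest to it in mean FPKM. In 6 members the SD was below the median of those genes (*Fos*, *Fosb*, *Jun*, *Junb*, *Ier2* and *Klf6*) and in 4 above it (*Egr1*, *Atf3*, *Dusp1* and *Ier3*). *Jun* was the extreme, with an SD of 0.0145 beside a median of 0.0917, and 0.200% of the 500 genes had a smaller one. At the other end, 89.2% of the genes near *Ier3* and 78.4% of those near *Egr1* had a smaller SD than they did. These positions are descriptions with no test.

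**Figure D3:**
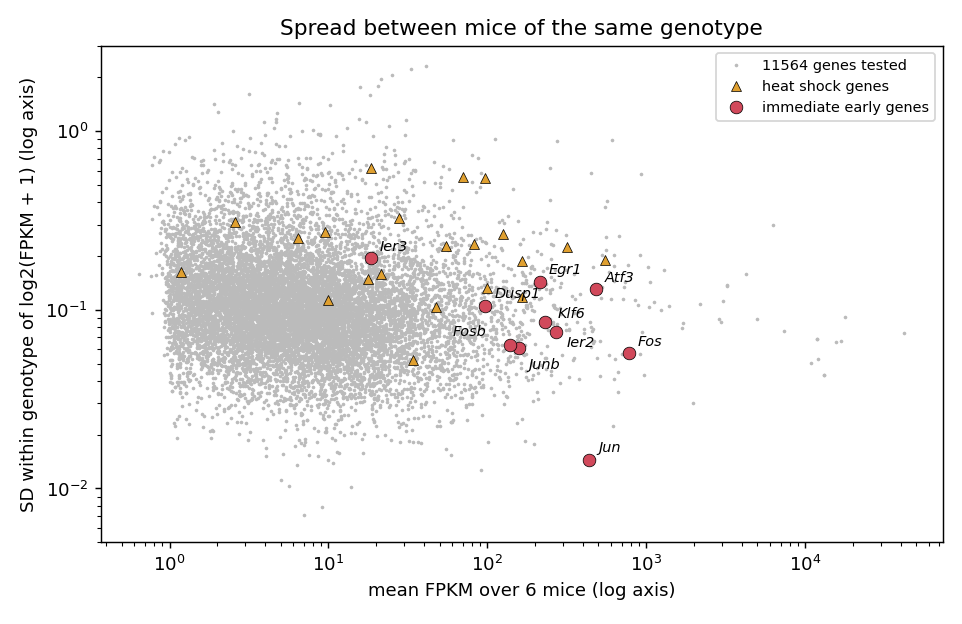
SD between mice of the same genotype of log2(FPKM + 1), pooled over both genotypes, against mean FPKM over the 6 mice, both on log axes, for the 11564 genes tested (grey dots), 21 heat shock genes (yellow triangles) and the 10 immediate early genes (red circles, named). *Jun* lies at the lower edge of the cloud at its level, and the heat shock genes have a median SD of 0.224 against 0.080 for the immediate early genes.

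Counting error was below the spread between mice in all 10 members. From the steps between low FPKM of genes with a single transcript, a depth of 27.6 M to 31 M fragments was estimated for the 6 libraries. This estimate is rough, as 58.2% to 64.8% of those low values lay within 0.1 of a whole step. At that depth *Fos* would rest on about 48810 fragments per sample and *Jun* on about 41384, with counting errors of 0.453% and 0.492%, beside coefficients of variation over the 6 mice of 3.74% and 2.05%. *Ier3* would rest on about 622 fragments, with a counting error of 4.01% beside a coefficient of variation of 15.9%. These errors cover counting only, and PCR copies are not independent fragments.

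The mice could also be ordered by the members together. Averaged over the 10 genes, each relative to its mean over the 6 mice, the deviation of log2(FPKM + 1) was -0.081 in Zfp90fl/fl replicate 1, 0.029 in replicate 2 and 0.050 in replicate 3, and -0.032, -0.020 and 0.054 in Zfp90ΔIEC replicates 1, 2 and 3. The lowest and the highest mouse were thus at 0.946 and 1.04 times the average. In Zfp90fl/fl replicate 1, 9 of the 10 genes were below their mean, all but *Fosb*, and in Zfp90ΔIEC replicate 3, 1 of the 10 was, *Klf6*. Zfp90ΔIEC replicate 2 held the lowest value of 5 members and the highest of *Ier3*. No mouse stood apart from the others in all members.

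**Figure D4:**
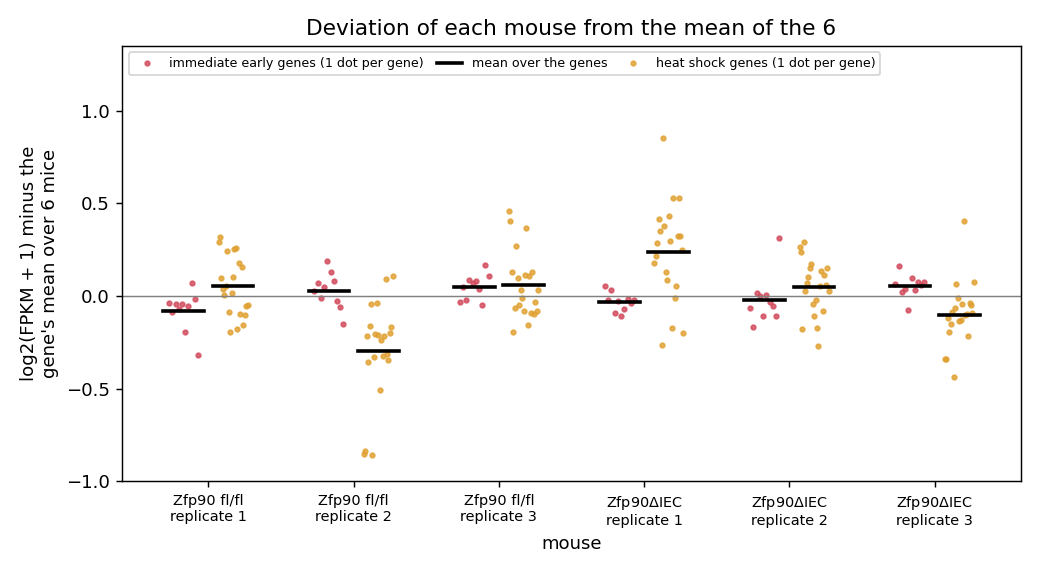
Deviation of log2(FPKM + 1) in each mouse from the gene's mean over the 6 mice, for the 10 immediate early genes (red) and the 21 heat shock genes that passed the filter (yellow), with 1 dot per gene and a black bar for the mean over the genes. The red means lie between -0.081 and 0.054, and the yellow means between -0.30 in Zfp90fl/fl replicate 2 and 0.24 in Zfp90ΔIEC replicate 1.

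Heat shock genes, chaperone genes that also respond to tissue handling, were set beside the members. Of 22 listed, 21 passed the filter, 0 passed the adjusted threshold in limma and 3 had an unadjusted p under 0.05 (14.3%, beside 14.6% of all genes tested). These 3, the chaperone genes *Hspd1*, *Hspe1* and *Stip1*, named after their values were seen, were all higher in the Zfp90ΔIEC mice. Of the 21, 16 had a log2 fold change above 0 and 5 below 0, with a median of 0.095, where 4951 of all genes tested were above 0 and 6613 below. Their SD between mice of the same genotype had a median of 0.224, beside 0.080 for the 10 members and 0.130 for 55 other immediate early genes counted below. Their mean deviation was -0.30 in Zfp90fl/fl replicate 2 and 0.24 in Zfp90ΔIEC replicate 1, which are mice in which the immediate early genes deviated by 0.029 and -0.032. *Hspa1a*, an inducible HSP70 gene, was measured at 82.4, 36.7 and 92.4 FPKM in the Zfp90fl/fl mice and 76.1, 80.9 and 52.8 FPKM in the Zfp90ΔIEC mice. Its near-identical neighbour *Hspa1b*, with which it may share reads, was measured at 115, 51.0 and 122 FPKM in the Zfp90fl/fl mice and 107, 109 and 72.4 FPKM in the Zfp90ΔIEC mice. *Hspa8*, the constitutive HSP70, was at 335, 269.5 and 343 FPKM in the Zfp90fl/fl mice and 382, 277 and 288 FPKM in the Zfp90ΔIEC mice. Their differences between genotypes were 0.070, 0.075 and -0.0083 on the log2 scale, with adjusted p in limma of 0.939, 0.934 and 0.984. For *Dnajb1*, *Hsp90aa1* and *Hspb1* they were -0.26, 0.34 and -0.19, with adjusted p of 0.490, 0.417 and 0.531.

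A wider list of 58 other immediate early and feedback genes was counted in the same fit. Of these, 55 passed the filter and 0 passed the adjusted threshold in limma, while 16 (29.1%) had an unadjusted p under 0.05, 9 higher and 7 lower in the Zfp90ΔIEC mice, beside 14.6% of all genes tested and 0 of the 10 members. Their median log2 fold change was 0.050 and its median size 0.139. Between mice of the same genotype their SD had a median of 0.130, above the 0.080 of the members and the 0.10 of all genes tested. The small spread of the members was thus not shared by the wider list. The lowest adjusted p was that of *Nfkbiz*, an IκB family gene induced by cytokines, which was chosen after its value was seen. It was measured at 40.3, 46.2 and 40.5 FPKM in the Zfp90fl/fl mice and 30.1, 30.3 and 31.5 FPKM in the Zfp90ΔIEC mice (log2 fold change -0.45, standard error 0.0687, limma adjusted p = 0.0664). The groups did not overlap, with the Zfp90ΔIEC mice lower. Among the most abundant of the list, with adjusted p in limma in brackets after each log2 fold change, *Btg2*, an antiproliferative gene, was at -0.029 (0.898), *Klf4*, a factor of differentiated colonocytes, at 0.15 (0.288), *Zfp36*, which destabilizes cytokine RNAs, at -0.16 (0.490), *Rhob*, a small GTPase, at -0.14 (0.320), *Id1*, an inhibitor of basic helix-loop-helix factors, at 0.24 (0.202) and *Mcl1*, a survival gene, at 0.050 (0.791). *Nr4a1*, an orphan nuclear receptor of the immediate early class, was at -0.064 (0.877), *Ccn1*, a matricellular protein gene, at -0.24 (0.240), *Myc* at 0.065 (0.704) and *Ppp1r15a*, a stress phosphatase subunit, at -0.052 (0.954).

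The kinases and factors upstream of the members, listed together with some related leucine zipper factors, were counted in the same way. Of 40 such genes, 35 passed the filter, 0 passed the adjusted threshold in limma (0.199% of all genes tested did) and 2 had an unadjusted p under 0.05 (5.71%, beside 14.6% of all genes tested), *Araf* and *Map2k4*, kinases of the ERK and JNK pathways named after their values were seen. *Araf* was at -0.14 (0.309) and *Map2k4* at -0.14 (0.291) on the log2 scale, with the limma adjusted p in brackets. Of the 35, 8 had a log2 fold change above 0 and 27 below 0, where 4951 of all genes tested were above 0 and 6613 below. *Mapk3* (ERK1) was at 139 ± 7.11 FPKM in the Zfp90fl/fl mice and 137 ± 12.9 FPKM in the Zfp90ΔIEC mice (SD, n = 3 each) and *Srf*, serum response factor and a member of both lists, at 18.3 ± 1.12 FPKM in the Zfp90fl/fl mice and 17.7 ± 1.18 FPKM in the Zfp90ΔIEC mice (SD, n = 3 each). Their log2 fold changes, with the adjusted p in limma in brackets, were -0.022 (0.920) and -0.043 (0.827), and those of *Egfr*, *Elk1* and *Creb1* were -0.12 (0.565), -0.030 (0.899) and -0.74 (0.434). *Creb1* varied within each genotype, at 4.05, 0.773 and 2.77 FPKM in the Zfp90fl/fl mice and 1.59, 0.631 and 0.728 FPKM in the Zfp90ΔIEC mice.

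Other genes were ranked by how closely they followed the members over the 6 mice. Against the mean of the 10 centred and scaled members, the 8 highest Pearson correlations among 6652 genes of at least 5 FPKM were those of *Chmp5*, *Psmb1*, *Uqcc1*, *Gm12396*, *Areg*, *Ypel3*, *H2afv* and *Dynlrb1*, between 0.962 and 0.981 over 6 samples (Spearman's rho between 0.886 and 1). None of the 8 is on the list of other immediate early genes. *Areg*, the gene of the EGF receptor ligand amphiregulin, was measured at 125.9, 158 and 155 FPKM in the Zfp90fl/fl mice and 148, 135 and 162 FPKM in the Zfp90ΔIEC mice. With 6 samples that share their scaling and 6652 candidates, such values are a description only.

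Other cell types were checked by their markers. All 14 colon epithelium markers passed the filter and 0 passed the adjusted threshold. Of the 10 neutrophil, 7 B and plasma cell, 6 smooth muscle, 7 endothelial and 6 enteric neuron and glia markers none passed the filter, and 1 of 8 fibroblast markers did. The neutrophil marker *Csf3r*, far below the filter, was at means of 0.267 FPKM in the Zfp90fl/fl and 0.00600 FPKM in the Zfp90ΔIEC mice. Over 27805 genes without the filter its limma adjusted p was 0.0177. Summed FPKM did not overlap between the genotypes for 6 lists. It was higher in the Zfp90ΔIEC mice for the epithelium, from 12157 to 14693 in the Zfp90fl/fl and from 14829 to 18788 in the Zfp90ΔIEC mice, and for the endothelium, from 0.347 to 0.496 and from 0.525 to 0.618. The endothelial sum was mostly *Pecam1*, at means of 0.257 FPKM in the Zfp90fl/fl and 0.458 FPKM in the Zfp90ΔIEC mice. *Vwf* went the other way, at 0.154 and 0.110 FPKM. Much of the epithelial sum was *Car1*, a carbonic anhydrase, at 4033, 5628 and 4458 FPKM in the Zfp90fl/fl mice and 6349, 10059 and 7206 FPKM in the Zfp90ΔIEC mice (limma adjusted p = 0.162). The epithelial markers did not rise as a set, as 7 of the 14 had a log2 fold change above 0 and 7 below 0. The sum was lower in the Zfp90ΔIEC mice for the 11 macrophage and monocyte markers, from 32.4 to 37.8 and from 17.5 to 20.0, for the neutrophil markers, from 1.3 to 2.49 and from 0 to 0.0300, for the B and plasma cell markers, from 0.766 to 1.11 and from 0.123 to 0.318, and for the 7 mast cell markers, from 18 to 26.1 and from 5.57 to 10.0. Sums of the T and NK lymphocyte, fibroblast, smooth muscle and enteric neuron and glia markers overlapped, the first from 7.23 to 18.1 and from 6.30 to 7.91.

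The macrophage sum was mostly *Cd14*, a lipopolysaccharide co-receptor, the 1 marker of that list past the threshold, at 24.5, 27.3 and 27.1 FPKM in the Zfp90fl/fl mice and 14.4, 12.9 and 15.5 FPKM in the Zfp90ΔIEC mice (log2 fold change -0.84, standard error 0.0807, limma adjusted p = 0.0219), and 7 of the 11 had a mean under 1 FPKM. In the mast cell list the protease genes *Mcpt1* (log2 fold change -2.76) and *Mcpt2* (-2.28) passed it, both at a limma adjusted p of 0.00271, while *Kit* was at a mean of 4.84 FPKM in the Zfp90fl/fl and 5.54 FPKM in the Zfp90ΔIEC mice. In the same order, the means were 11.3 and 0.787 FPKM for *Mcpt1* and 5.32 and 0.288 FPKM for *Mcpt2*. The summed FPKM of the 10 immediate early genes ran from 2709 to 2919 and from 2712 to 2947, which overlapped. The part of these cell types in the members' levels was not tested. In bulk samples, fewer cells of a type and less RNA per cell cannot be told apart.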

How the data were processed

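RNA-seq was made from the colon epithelium of 6 mice, 3 of each genotype. The authors sequenced paired-end reads, and the paper names TopHat, Cuffdiff and a human genome, while the submitters' processing notes name FastQC, STAR 2.5, Cuffnorm, DESeq 1.22.1 and mm9. The deposited values are an FPKM for each of 52550 mouse Ensembl genes in a file per sample, not pooled. The choice between these pipelines, and how either shares reads between similar genes, could change the values. Symbols were found for 52403 genes in GENCODE M21 (GRCm38), and coordinates are from that annotation, not from the files.

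A pseudocount of 1 was added before taking log2. The 11564 genes that reached 1 FPKM in 3 or more samples were compared between genotypes with limma 3.58.1 in R 4.3.3 (linear model, intensity trend, Benjamini-Hochberg adjustment over all genes tested, threshold 0.05), after a test on simulated data. Genes below the filter take their statistics from the same fit over the 27805 genes above 0 in any sample. FPKM are not counts, so no count model was used. Depth was estimated from transcripts of over 2000 bases. The genotypes were grouped by sample titles, and the paper gives 3 mice per genotype.

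The members and lists were chosen with earlier results of these data known. The genes named are the 10 members, genes set by name or by highest mean in the other gene lists, the 8 of most similar pattern, and, chosen after their values were seen, *Nfkbiz*, *Araf*, *Map2k4*, *Hspd1*, *Hspe1*, *Stip1*, *Car1*, *Kit*, *Pecam1*, *Vwf* and the markers past the threshold. The values of 1 gene set by name are not reported here. Mice were housed by genotype after weaning, and an effect of the cage cannot be told apart from that of the genotype. Alternatives were a pseudocount of 0.1, no filter or one at 0.1 FPKM, scaling by quantiles or by median ratios, a block for the replicate number, no trend, and leaving out each mouse. Figures were drawn with matplotlib 3.10.9.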

Additional observations from a re-analysis of the deposited data

How the results depend on the processing

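Under 13 alternatives for each member, 0 of 130 fits passed the threshold, the lowest adjusted p in limma was 0.266 (*Klf6*, quantile normalization), and 3 fits had an unadjusted p under 0.05, 2 of *Klf6* and 1 of *Ier3*. *Fos*, *Jun*, *Junb*, *Ier2*, *Ier3* and *Klf6* kept their sign in all 13, while *Fosb*, *Egr1*, *Atf3* and *Dusp1* did not. *Ier3* ran from 0.14 to 0.36 and *Klf6* from -0.20 to -0.083 on the log2 scale. The members' median change ran from -0.075 to 0.011 with a mouse left out, the first without Zfp90fl/fl replicate 1, and was -0.030 with quantile normalization, 0.015 with median ratio scaling and -0.019 without *Ier3*, an alternative chosen after the data were seen. The count over all genes, 23, moved to 13 with a pseudocount of 0.1, to 15 without the filter and to 47 with the replicate block, and ran from 10 to 21 with a mouse left out, lowest without Zfp90fl/fl replicate 2. In the fit with the replicate block 0 members were called. Same-numbered mice deviated together with correlations across genes of 0.194, 0.110 and 0.078, above those of differently numbered mice, which ran from -0.128 to 0.0137. Deviations were taken from the mean of each genotype, so correlations above 0 in some pairs push those of other pairs down. The contrast is thus partly fixed by this step. As the 3 same-numbered correlations were not all over 0.1, the main fit did not pair the mice. An effect shared by mice of the same number is not excluded by this. Of the other immediate early, heat shock and upstream genes, 0 were called under each alternative. With 3 mice a genotype, differences smaller than the intervals given could not be detected.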
